A study of Mus musculus with 6 samples.

Results

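Microglia are the resident macrophages of the brain. They keep themselves through the growth factor receptor CSF1R, sense neurons and injury through the chemokine receptor CX3CR1 and the purinergic receptor P2RY12, and clear debris with the help of TREM2, a surface receptor that signals through the adaptor TYROBP. A set of 9 genes known from these cells, Cx3cr1, P2ry12, Tmem119, Csf1r, Aif1, Trem2, Tyrobp, Itgam and Cd68, were followed gene by gene in polysomal mRNAs of hippocampal astrocytes. They were chosen by name as microglia genes, and all 9 were found among the 22086 genes of the counts, each read from its transcript with the highest total over the 6 libraries.

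Translating ribosome affinity purification (TRAP) pulls down ribosomes that carry the protein L10a fused to eGFP, here driven by the Aldh1l1 promoter of astrocytes on a BAC transgene kept heterozygous (tg:Aldh1L1-RPL10aGFP). Polysomes were taken from whole hippocampi of 6 weeks-old mice. The 3 Cx43FL libraries came from littermates with floxed Cx43 alleles (Cx43 fl/fl) and no Cre, and the 3 Cx43KO libraries from mice with the same floxed alleles plus Gfap Cre, the Gfap promoter driving the recombinase. The sources used here do not say whether each library came from a separate animal, so p-values measure only the spread between libraries, which may in part be technical.

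Library totals on genes ranged from 14787303 to 15391214 counts in Cx43FL and from 16056347 to 34733473 in Cx43KO. CPM are counts scaled to one common library total with TMM factors, and 3 counts, taken as the smallest detectable amount, correspond to between 0.0926 and 0.199 CPM, counting error only. Gja1, the gene of Cx43, had 82.3 to 92.0 CPM across Cx43FL against 87.2 to 98.4 across Cx43KO, overlapping between the genotypes (log2 fold change 0.078, standard error, SE, 0.28, edgeR quasi-likelihood adjusted p = 0.949). A loss of Gja1 reads was therefore not seen in the libraries labelled Cx43KO, although a total over the whole transcript cannot tell whether its floxed coding part was lost. Every direction given here is between libraries labelled Cx43KO and libraries labelled Cx43FL. Aldh1l1 had 95.6 to 162 CPM across Cx43FL against 62.8 to 181 across Cx43KO. Cx43KO replicate 1 stood apart from the other libraries: across tested genes its log2 values correlated with theirs at 0.783 to 0.837, all other pairs of libraries at 0.862 or more. The numbers that the deposited libraries carry fall in separate ranges for the genotypes, so that a difference between preparations, if any, cannot be told apart from the genotype.

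Microglia genes were present in every astrocyte library, at a low level. On a scale corrected for transcript length (TPM, which sums to the same total in each library), the 9 genes summed to 41.2, 50.4 and 17.2 in Cx43FL replicates 1 to 3 and to 51.9, 115.7 and 109.5 in Cx43KO replicates 1 to 3. A total of 12 astrocyte markers, among them Gfap, Aqp4 and Slc1a2, summed to between 11866 and 13934 TPM in Cx43FL and between 6672 and 16706 TPM in Cx43KO. The microglia sum was thus 0.332%, 0.425% and 0.123% of the astrocyte sum in Cx43FL and 0.778%, 0.937% and 0.655% in Cx43KO, every Cx43KO library being above every Cx43FL library. In Cx43KO replicate 1 much of this was Itgam: without it the other 8 genes summed to 40.9, 50.4 and 17.1 TPM in Cx43FL replicates 1 to 3 but to 29.95, 111 and 108 TPM in Cx43KO replicates 1 to 3, so that the sums overlapped. As a share of the astrocyte sum, which was lowest in that library, the 8 genes came to 0.449% there and to 0.425% in the highest Cx43FL library. Which cells the reads came from was not tested, and in bulk material a different number of cells and a different amount of RNA per cell cannot be told apart.

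The 9 genes did not move as one group. Itgam and Csf1r were higher in every Cx43KO library, Trem2 and Tyrobp were high in Cx43KO replicates 2 and 3 only, Aif1 was high in 1 or 2 libraries of either genotype, and Cx3cr1, P2ry12, Tmem119 and Cd68 overlapped between the genotypes. With edgeR's quasi-likelihood test, 8 of the 9 genes could be tested and 0 had a Benjamini-Hochberg adjusted p-value below 0.05. Over all 13545 genes tested the same rule, with a mean normalized count above 50 in the higher group, called 0.00738% as higher in Cx43KO, that is 1 gene, Prm1, named here after its value was seen. DESeq2 called 1 of the 9, Itgam, as higher, both with its prior (0.724% of all genes called higher, 0.103% lower) and without it (0.893% higher, 0.14% lower).

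**Figure D1:**
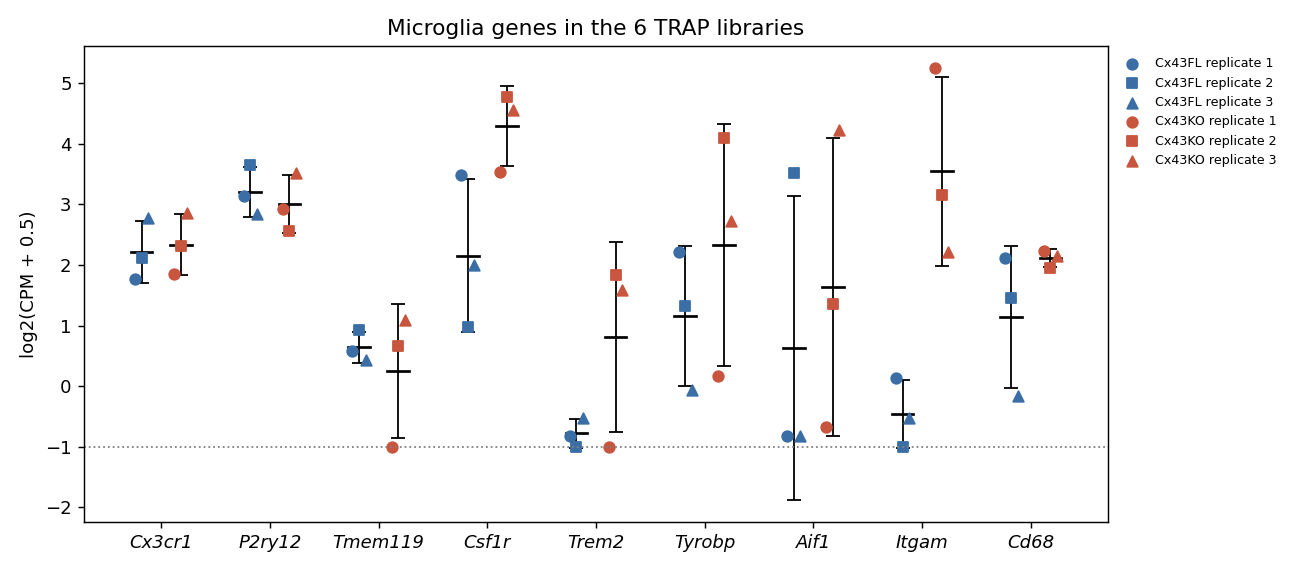
Level of the 9 microglia genes, as log2(CPM + 0.5), in the 3 Cx43FL (blue) and 3 Cx43KO (red) libraries; symbols give the replicate, bars the mean and SD of each genotype, and the dotted line marks 0 counts. Csf1r and Itgam have all Cx43KO points above all Cx43FL points, whereas the points of the other 7 genes overlap.

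Promoter sequence was printed for 4 genes with different behaviour: Itgam, separated by genotype, Trem2, high in 2 libraries, and P2ry12 and Cx3cr1, whose libraries overlapped. The 250 bases before the RefSeq transcription start (GRCm38.p6) were taken, with 6 of the 9 genes matched. For Itgam, Trem2 and Cx3cr1 this is also the start of the counted transcript, whereas the counted P2ry12 transcript starts 154 bases further downstream. The longer gene spans given with each gene below cover all its annotated transcripts. Capitals mark the letters GAGGAA, the core bound by the myeloid factor PU.1 (Spi1), or the related Ets-family core GGAAGT, either on the strand shown or, as TTCCTC and ACTTCC, on the other.
Itgam, chr7:128062390-128062639, + strand: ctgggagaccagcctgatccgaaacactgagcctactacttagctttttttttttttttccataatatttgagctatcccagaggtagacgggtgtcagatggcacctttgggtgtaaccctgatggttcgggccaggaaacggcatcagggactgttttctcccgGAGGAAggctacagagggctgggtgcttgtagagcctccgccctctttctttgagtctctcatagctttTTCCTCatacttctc
Trem2, chr17:48346151-48346400, + strand: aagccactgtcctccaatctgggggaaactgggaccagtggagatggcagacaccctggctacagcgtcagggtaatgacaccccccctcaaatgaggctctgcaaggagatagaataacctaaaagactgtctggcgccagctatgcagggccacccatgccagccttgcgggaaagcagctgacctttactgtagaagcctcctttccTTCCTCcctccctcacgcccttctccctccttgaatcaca
P2ry12, chr3:59262986-59263235, - strand: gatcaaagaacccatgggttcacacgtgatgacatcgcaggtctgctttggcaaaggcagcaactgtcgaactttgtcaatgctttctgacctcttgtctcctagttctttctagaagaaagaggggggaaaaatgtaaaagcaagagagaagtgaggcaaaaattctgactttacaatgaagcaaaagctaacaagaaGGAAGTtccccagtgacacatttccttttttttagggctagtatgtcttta
Cx3cr1, chr9:120068297-120068546, - strand: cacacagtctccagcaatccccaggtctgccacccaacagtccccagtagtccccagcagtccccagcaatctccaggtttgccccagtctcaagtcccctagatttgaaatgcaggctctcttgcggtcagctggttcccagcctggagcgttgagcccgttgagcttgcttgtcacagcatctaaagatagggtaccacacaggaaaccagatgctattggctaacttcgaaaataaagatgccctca
GAGGAA was present in 4 of the 6 promoters (Itgam, Trem2, Aif1 and Cd68), against 23.3% of all 32851 promoter windows of this length. The counted Aif1 transcript starts 2774 bases downstream of the RefSeq start, so the Aif1 window is not next to the counted start. Itgam held it at 2 places, from -84 to -79 and, on the other strand, from -15 to -10 relative to the RefSeq start. GGAAGT was present in 1 of the 6 (P2ry12, from -51 to -46 of the RefSeq start), against 19.7% of all windows, and the 2 cores can overlap each other by their letters GGAA. These are matches of letters and do not show that a factor binds there.

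Among the genes of homeostatic microglia, P2ry12 (chromosome 3 of GRCm38, 59216272 to 59262871, 4 exons) encodes the ADP receptor through which microglial processes are drawn to injury. Its level was 8.30, 12.1 and 6.64 CPM across Cx43FL replicates 1 to 3 against 7.08, 5.43 and 11.0 CPM across Cx43KO replicates 1 to 3. Both genotypes thus covered nearly the same range, and the log2 fold change was -0.20 (SE 0.68, edgeR quasi-likelihood adjusted p = 0.945).

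Cx3cr1 (chromosome 9, 119901616 to 120069879, 2 exons) encodes the receptor of fractalkine, a chemokine of neurons. It had 2.90, 3.85 and 6.32 CPM across Cx43FL against 3.10, 4.46 and 6.73 across Cx43KO. The libraries of the 2 genotypes interleaved, with a log2 fold change of 0.13 (SE 0.86, edgeR quasi-likelihood adjusted p = 0.976). Its second coding transcript, which lacks 596 bases after the coding sequence, had 9, 44 and 89 counts across Cx43FL against 31, 101 and 130 across Cx43KO, with a log2 fold change of 0.12.

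Tmem119 (chromosome 5, 113793729 to 113800516, 2 exons) encodes a membrane protein that, in the brain, marks microglia against other macrophages. It was the most weakly counted of the 3, with 15, 21 and 13 counts across Cx43FL against 0, 27 and 53 across Cx43KO. The 0 counts of Cx43KO replicate 1 allow a level of up to 0.186 CPM, against 0.847 to 1.39 CPM in Cx43FL, and the other Cx43KO libraries had 1.09 and 1.64 CPM. Its log2 fold change was -0.23 with a standard error of 1.46. The standard errors of these 3 genes leave room for changes in either direction.

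Csf1r (chromosome 18, 61100598 to 61132149, 21 exons in the transcript used) encodes the receptor of the survival factors CSF1 and IL-34. It had 163, 22 and 54 counts across Cx43FL replicates 1 to 3 against 179, 672 and 752 across Cx43KO replicates 1 to 3. In CPM, Cx43FL lay at 10.7, 1.46 and 3.52 and Cx43KO at 11.1, 27.0 and 23.2, so that Cx43KO replicate 1 exceeded Cx43FL replicate 1 only by little. The log2 fold change was 1.96 (SE 0.78), and edgeR's quasi-likelihood test gave an adjusted p = 0.556, the unadjusted value being 0.0286. It was 3.03 without Cx43FL replicate 1, the highest library of its genotype, and 1.28 in DESeq2 with its prior.

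Part of the Csf1r counts lay in sequence shared with another gene. Its longest transcript has 1015 bases after the coding sequence that the other coding transcript lacks, and 873 of them are also exon of Hmgxb3 on the opposite strand. The sources used here do not state that strand was used in counting, so that reads of the 2 genes cannot be told apart there. The count on the longest transcript exceeded that on the shorter one by 86, 22 and 40 in Cx43FL, which is 52.8%, all and 74.1% of its counts. In Cx43KO the excess was 13, 74 and 10 counts, or 7.26%, 11.0% and 1.33%. Hmgxb3 itself had 23.2, 5.11 and 14.5 CPM across Cx43FL against 6.89, 18.3 and 5.37 across Cx43KO.

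On the shorter transcript, free of that overlap, Csf1r had 77, 0 and 14 counts across Cx43FL against 166, 598 and 742 across Cx43KO. The gap between the genotypes was wider there than on the longest transcript: 5.07 CPM in the highest Cx43FL library against 10.3 CPM in the lowest Cx43KO library. Its log2 fold change was 3.26 (SE 1.18), with an edgeR quasi-likelihood adjusted p = 0.703 over all transcripts, the unadjusted value being 0.0177.

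**Figure D2:**
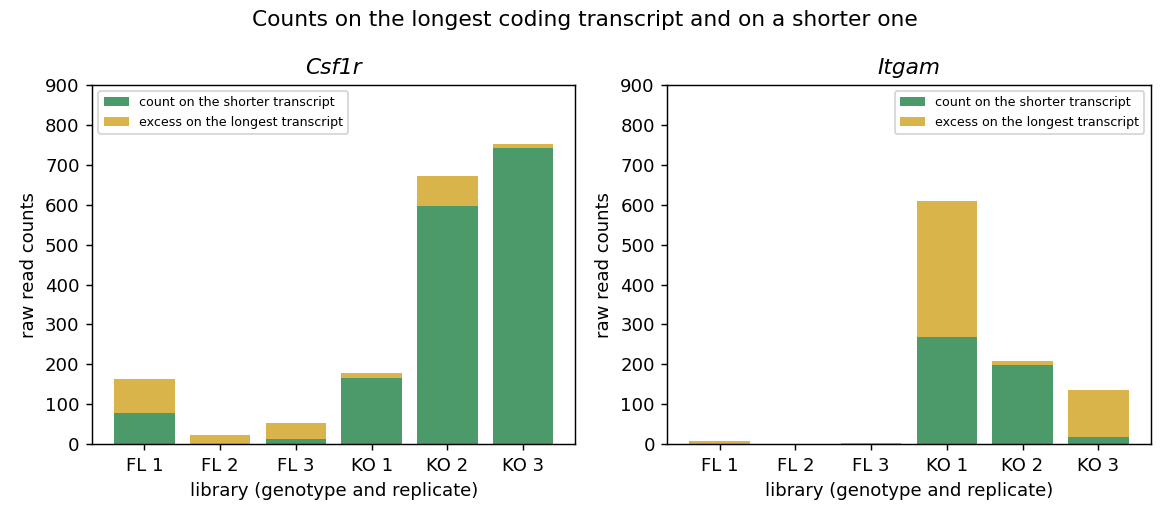
Raw read counts of Csf1r (left) and Itgam (right) in each library (FL, Cx43FL; KO, Cx43KO; numbers are replicates), as the count on a shorter coding transcript (green) and the excess on the longest one (yellow). For Csf1r the excess makes up 52.8% or more of the Cx43FL counts and 11.0% or less of the Cx43KO counts; for Itgam it makes up 56.1%, 4.78% and 87.4% of Cx43KO replicates 1 to 3.

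TREM2 and TYROBP form a receptor complex, TREM2 binding lipids and debris and TYROBP carrying the signal inwards. Trem2 (chromosome 17, 48346401 to 48354147, 5 exons) had 1, 0 and 3 counts across Cx43FL against 0, 76 and 81 across Cx43KO. It was at or below the floor of 3 counts in every Cx43FL library and in Cx43KO replicate 1, and at 3.05 and 2.50 CPM in Cx43KO replicates 2 and 3. The filter on low counts removed it from the main test. Without the filter, the quasi-likelihood adjusted p (edgeR) was 0.556, beside a log2 fold change of 4.32 (SE 2.15), a size that depends on the prior count because Cx43FL is nearly at 0.

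Tyrobp (chromosome 7, 30413760 to 30417585, 5 exons, 1 transcript) followed the same 2 libraries, with 63, 30 and 7 counts across Cx43FL against 10, 415 and 199 across Cx43KO. Its level was 4.15, 1.99 and 0.456 CPM across Cx43FL against 0.621, 16.7 and 6.14 CPM across Cx43KO, replicate 1 of Cx43KO lying inside the Cx43FL range. The log2 fold change of 1.83 (SE 1.21, edgeR quasi-likelihood adjusted p = 0.659) was 0.63 without Cx43KO replicate 2. Leaving out Cx43KO replicate 1 instead made the genotypes separate for Trem2 and Tyrobp too, and the log2 fold change of Tyrobp 2.37. With 1 library fewer any gene separates more easily, and the share over all genes is not given for this setting. Hcst, which encodes a second adaptor of this kind and lies next to Tyrobp, had 0, 12 and 0 counts across Cx43FL against 1, 31 and 0 across Cx43KO.

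Aif1 (chromosome 17, 35170991 to 35176068, 7 exons) encodes IBA1, the actin-binding protein used to stain microglia. Relative to its mean TPM, it had the largest SD of the 9 genes in either genotype. It had 1, 166 and 1 counts across Cx43FL against 2, 51 and 591 across Cx43KO, so that Cx43FL replicate 2 and Cx43KO replicate 3 held most of them. The log2 fold change of 0.88 (SE 1.79, edgeR quasi-likelihood adjusted p = 0.901) was 6.56 without Cx43FL replicate 2 and -1.75 without Cx43KO replicate 3. A single library thus decided its direction.

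Itgam (chromosome 7, 128062640 to 128118491, 30 exons) encodes CD11b, the integrin chain of complement receptor 3, which microglia share with monocytes and neutrophils. It had 9, 0 and 3 counts across Cx43FL against 610, 209 and 135 across Cx43KO. No other of the 9 genes was this far apart: the highest Cx43FL library was at 0.593 CPM and the lowest Cx43KO library at 4.17 CPM. Cx43KO replicate 1, the library low in Trem2, Tyrobp and Tmem119, was the highest for Itgam at 37.9 CPM.

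The log2 fold change of Itgam was 5.96 (SE 1.33), a size that depends on the prior count because Cx43FL is nearly at 0. Its unadjusted p-value was 9.47e-04 and its adjusted p 0.490 in edgeR's quasi-likelihood test, against 5.97e-04 for the adjusted p in DESeq2 with its prior. The study itself picked Itgam as raised from these same libraries, so that its direction here is not independent evidence.

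Reads of Itgam were spread differently in the 3 Cx43KO libraries. A shorter coding transcript, without 960 bases after the coding sequence and 354 bases within it, had 268, 199 and 17 counts in Cx43KO replicates 1 to 3, and 1, 0 and 1 counts in Cx43FL. The longest transcript thus had 56.1%, 4.78% and 87.4% of its counts in excess of the shorter one. On another coding transcript, which lacks 1117 bases after the coding sequence, the Cx43KO libraries had 268, 184 and 1 counts and the Cx43FL libraries 0, 0 and 1, so that replicate 3 of Cx43KO fell into the Cx43FL range. The annotation also places exons of Gm49368 on the same strand over 3450 bases of Itgam, and reads of these 2 models cannot be told apart.

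Cd68 (chromosome 11, 69664213 to 69666153, 6 exons) encodes a lysosomal glycoprotein of phagocytes. It had 3.82, 2.26 and 0.391 CPM across Cx43FL against 4.22, 3.38 and 3.95 across Cx43KO. The Cx43KO libraries were close to each other, while Cx43FL spread over a wide range that reached into theirs. Its log2 fold change was 0.83 (SE 1.07, edgeR quasi-likelihood adjusted p = 0.827) and 0.34 without Cx43FL replicate 3.

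**Figure D3:**
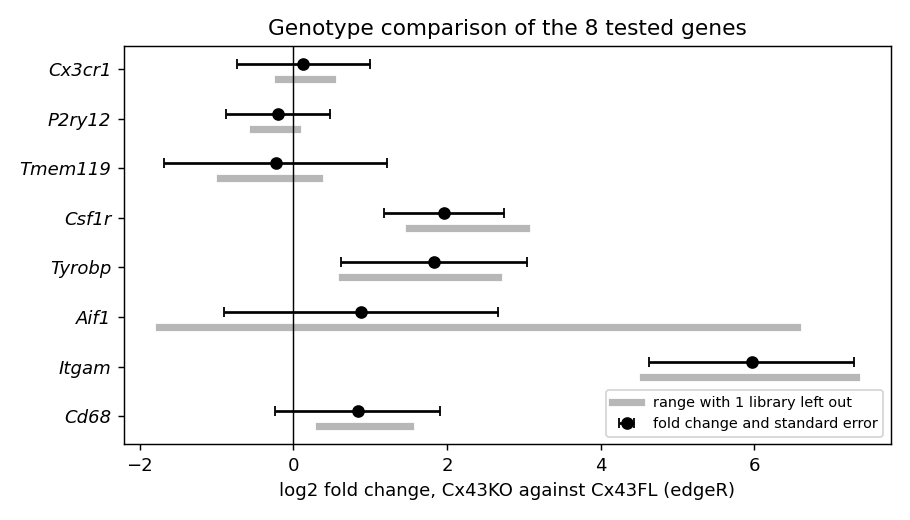
Log2 fold change of Cx43KO against Cx43FL for the 8 genes tested (points, bars give the standard error; Trem2 did not pass the filter), with the range obtained when each library is left out in turn (grey). The Aif1 range crosses 0 widely, from -1.75 to 6.56, and that of Itgam stays between 4.55 and 7.32.

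The genotypes did not overlap, Cx43KO being higher, for 2 of the 9 genes, Csf1r and Itgam (exact 2-sided permutation test, p = 0.1 each, the smallest that 3 libraries against 3 allow), and this held for 8.08% of all genes tested. None of the 9 was lower in every Cx43KO library, against 7.45% of all genes. An unadjusted p-value below 0.05 was reached by the same 2 of the 8 genes tested, and by 5.66% of all genes in the direction of higher counts, while 0 of the 8 reached it in the other direction, against 2.67% of all genes. The median log2 fold change of the 8 genes was 0.86, and that of all genes tested 0.071, 6 of the 8 being positive. Lists of other cells had similar medians, 0.91 for 12 neuron markers (12 positive) and 0.85 for 10 oligodendrocyte markers (10 positive), while 12 astrocyte markers had -0.030 (6 positive). These shares describe the 9 genes, which were chosen with earlier results known.

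Levels could be ordered only loosely. In Cx43FL the order per length was P2ry12 (8.69 ± 1.75 TPM, SD, n = 3 libraries), Aif1, Tyrobp, Cd68, Cx3cr1, Csf1r, Tmem119 (1.05 ± 0.161 TPM), Trem2 (0.189 ± 0.219 TPM) and Itgam (0.130 ± 0.148 TPM). Only Tmem119 and Trem2 were neighbours whose ranges did not overlap. In Cx43KO the order was Tyrobp (32.0 ± 34.1 TPM), Aif1 (17.4 ± 25.0 TPM), Csf1r (10.2 ± 3.56 TPM), Itgam (9.37 ± 11.0 TPM), P2ry12 (8.22 ± 2.39 TPM), Cd68, Trem2, Cx3cr1 and Tmem119 (0.900 ± 0.808 TPM). There, only Cx3cr1 and Tmem119 did not overlap. Itgam thus stood last in Cx43FL and the fourth in Cx43KO.

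The mean profile of the 9 genes, each as log2(CPM + 0.5) centred on its own mean, was -0.37, -0.35 and -1.02 in Cx43FL and -0.20, 0.85 and 1.09 in Cx43KO. The 5 other genes with the highest Pearson correlation to it over the 6 libraries were C1qc (0.995), Phc1 (0.984), Cxcl10 (0.984), Lgmn (0.980) and Tspan4 (0.976). C1qc encodes a chain of complement C1q, Cxcl10 a chemokine and Lgmn a lysosomal protease. The study itself listed Cxcl10 as raised from these same libraries. By in situ hybridization it also found Cxcl10 mRNA in some astrocytes of Cx43KO hippocampus. C1qc had 0.922, 0.929 and 0.0651 CPM across Cx43FL against 1.18, 11.6 and 22.5 across Cx43KO, again with replicate 1 the lowest of its genotype. These correlations come from 6 libraries that also differ in depth and genotype, and describe likeness only.

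**Figure D4:**
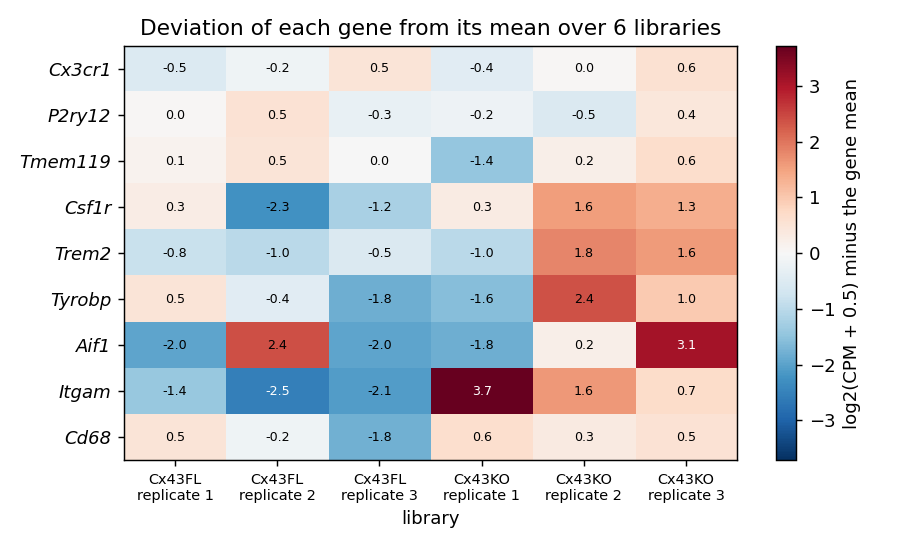
Deviation of log2(CPM + 0.5) of each gene from its own mean over the 6 libraries (columns), red for above and blue for below the mean. Trem2 and Tyrobp share high values in Cx43KO replicates 2 and 3, Itgam peaks in Cx43KO replicate 1, and Aif1 is high in Cx43FL replicate 2 and Cx43KO replicate 3.

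Other genes of the same cells were read from lists. Of 16 further microglia genes, 11 could be tested and 0 passed the adjusted threshold in either direction. Every Cx43KO library was above every Cx43FL library for 2 of the 11, against 8.08% of all genes tested. Hpgds, the hematopoietic prostaglandin D synthase, and P2ry13, a purinergic receptor related to P2ry12, had the largest positive log2 fold changes, 3.64 (SE 1.97) and 2.92 (SE 1.56). Sall1, a transcription factor of microglial identity that was also well counted here, had the only negative one, -0.36 (SE 0.36), with 990 to 1032 counts in Cx43FL. The median of the list was 1.65.

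Ligands and signalling partners of the receptors were measured too. Of 13 such genes 8 could be tested and 0 passed the adjusted threshold. Every Cx43KO library was higher for 1 of the 8, against 8.08% of all genes tested: Csf1, which encodes a ligand of CSF1R. Csf1 had 178, 131 and 93 counts across Cx43FL against 555, 307 and 775 across Cx43KO. In CPM, Cx43FL lay at 11.7, 8.69 and 6.06 and Cx43KO at 34.5, 12.3 and 23.9. Cx43KO replicate 2 thus exceeded Cx43FL replicate 1 only by little. The log2 fold change was 1.42 (SE 0.58, edgeR quasi-likelihood adjusted p = 0.563). Lcp2, an adaptor of immune receptors, had a log2 fold change of 1.47 (SE 1.74), and Cd200r1 had 0 counts in all 6 libraries. Of 8 myeloid transcription factors 7 could be tested, with 0 past the adjusted threshold and a median log2 fold change of 0.43, from -1.93 (Runx1) to 0.56 (Ikzf1). Spi1, the gene of PU.1, could not be tested. It had 9, 2 and 7 counts across Cx43FL against 10, 25 and 44 across Cx43KO. Cx43KO replicate 1, at 0.621 CPM, was close to Cx43FL replicate 1 at 0.593 CPM.

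Markers of other cells differed between libraries. The 12 neuron markers summed to 2169 to 2916 CPM across Cx43FL against 7821, 3079 and 4476 across Cx43KO replicates 1 to 3, all 12 being detected in every library. The 10 oligodendrocyte markers summed to 628 to 1082 CPM across Cx43FL against 2813, 1147 and 662 across Cx43KO. Astrocyte markers summed to 20191 to 23484 CPM across Cx43FL against 11710, 21939 and 33440 across Cx43KO. Cx43KO replicate 1, with the highest Itgam, was thus highest for neuron and oligodendrocyte markers and lowest for astrocyte markers, and their part in the result was not tested. Without that library the log2 fold change of Itgam was 4.55 and that of Csf1r 2.26.

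**Figure D5:**
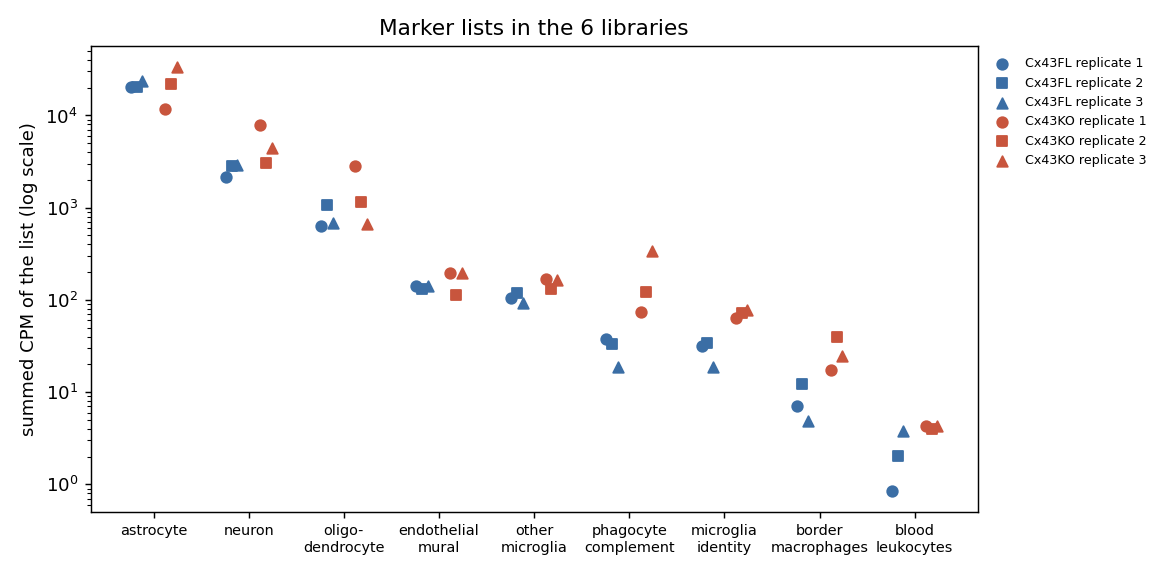
Summed CPM (log scale) of 9 marker lists in each library, with colours and symbols for genotype and replicate. The 9 microglia genes lie between 64.1 and 77.6 CPM in Cx43KO, above every Cx43FL library, although without Itgam Cx43KO replicate 1 has 26.3 CPM and lies inside the Cx43FL range, and Cx43KO replicate 1 is the highest for the neuron and oligodendrocyte lists and the lowest for the astrocyte list.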

How the data were processed

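Astrocyte polysomal mRNAs of 3 Cx43FL and 3 Cx43KO hippocampal libraries were sequenced from small amounts of amplified RNA. The authors deposited raw read counts per Ensembl transcript, 1 file per library. They removed reads of 40 bases or less or of mean quality 30 or less, mapped the rest with STAR on mm10, discarded reads with several alignments, and counted with HTSeq; the submitters' processing notes list HTSeq 0.5.3 and bcl2fastq 1.8.4. Several transcripts of a gene could carry the same counts, as 3 coding transcripts of Aif1 did in all 6 libraries, so that counts of transcripts were not added up in the main test, and a gene was read from its transcript with the highest total. Transcripts were matched to GENCODE vM21 (GRCm38): 73157 of 75466 matched, and the 2309 unmatched ones held 1.60% to 1.78% of the counts and were not used.

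Library totals on transcripts were 33423491 to 77030398. Genotypes were compared with edgeR 4.0.16 (R 4.3.3; TMM factors, filterByExpr, quasi-likelihood test, Benjamini-Hochberg adjustment) on 13545 genes, and calls needed an adjusted p under 0.05 plus, in the higher genotype, a normalized mean over 50 counts. DESeq2 1.42.0 with and without its prior, other scalings and filters, sums over transcripts, a replicate block and leaving out each library were tried as alternatives. Single values were compared with an exact 2-sided permutation test (scipy 1.17.1). On simulated counts for this comparison with 200 of 13545 genes changed by 3 on the log2 scale, 86.5% were recovered, with 5 false calls. The changed genes were drawn only from genes well counted in Cx43FL. That share therefore does not give the power for weakly counted genes, as most of the microglia genes were. Itgam, with a log2 fold change of 5.96, was not called (edgeR quasi-likelihood adjusted p = 0.490). No pair of libraries agreed within sampling noise (chi-square per degree of freedom of at least 32.5).

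The 9 genes and the 11 other lists (further microglia, phagocyte and complement, myeloid transcription factor, ligand and signalling, activated microglia, border macrophage, blood leukocyte, astrocyte, neuron, oligodendrocyte, endothelial and mural genes) were chosen with earlier results of these data known. Named were the 9 genes, Gja1, Aldh1l1 and the 5 genes most like the mean profile. Of the other lists, some genes with the most positive or most negative log2 fold changes or at 0 counts were also named. For the neuron, oligodendrocyte, endothelial and mural lists none of these were named. Other genes were named after their values were seen. Promoters of Tmem119, Csf1r and Tyrobp and protein sequences were not used here.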

Additional observations from a re-analysis of the deposited data

How the results depend on the processing

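The number of genes called higher in Cx43KO was 1 in the main test and under DESeq2 size factors, upper-quartile factors, no filter and no minimum mean. It was 0 with at least 10 counts in every library, 0 with sums over transcripts, 2 with the replicate block, 98 in DESeq2 with its prior, 121 in DESeq2 without it and 763 at an unadjusted p below 0.05. Leaving out 1 library gave 0 to 11, the 11 without Cx43KO replicate 1. Genes called lower numbered 0, against 14 and 19 in DESeq2 with and without its prior and 358 at an unadjusted p. Of the 9 microglia genes 0 were called, against 1 in DESeq2 with the prior, 1 without it (Itgam, log2 fold change 2.56 and 6.01) and 2 at an unadjusted p (Itgam and Csf1r). The cause of these differences was not tested.

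Signs turned only when 1 library was left out: Aif1 to -1.75 (without Cx43KO replicate 3), Cx3cr1 to -0.11 and -0.20 (without Cx43FL replicate 1 and Cx43KO replicate 3), P2ry12 to 0.051 and 0.0039 (without Cx43FL replicate 2 and Cx43KO replicate 2) and Tmem119 to 0.33 (without Cx43KO replicate 1). Log2 fold changes over these fits spanned -1.75 to 6.56 for Aif1, -0.20 to 0.50 for Cx3cr1, -0.53 to 0.051 for P2ry12 and -0.96 to 0.33 for Tmem119. The median log2 fold change of the tested microglia genes stayed positive, between 0.12 and 1.52. The lowest value came with at least 10 counts in every library, where Cx3cr1, P2ry12 and Csf1r alone remained testable. Genes whose genotypes did not overlap numbered 2 to 4 when 1 library was left out, an alternative chosen after seeing the data: 4 without Cx43KO replicate 1, and Cd68 or Aif1 as the third without certain other libraries. With fewer libraries any gene separates more easily, and the share over all genes is not given for these settings. A rise in this number is therefore not read as a result. Same-numbered libraries did not deviate together (correlations of 0.011, -0.0040 and -0.055), so the replicate block pairs libraries that share only a number; the member median was 1.32 with it. Counts under 100 in at least 2 of the 3 Cx43FL libraries limit what can be said of each of the 9 genes but P2ry12.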

Other observations

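Genes of phagocytes and complement, which microglia share with other macrophages, were described by counts only. Of 21 such genes 16 could be tested, 0 passed the adjusted threshold of edgeR's quasi-likelihood test, 8 had an unadjusted p-value below 0.05 in the direction of higher counts in Cx43KO (5.66% of all genes) and 0 in the other (2.67%), and DESeq2 with its prior called 4 as higher (0.724%). Every Cx43KO library was above every Cx43FL library for 8 of the 16 tested (8.08% of all genes), and below for 1 of the 16, Cd14 (7.45%). It was also above for 1 that could not be tested, Itgb2. Itgb2 had 0 counts in every Cx43FL library against 45, 3 and 1 across Cx43KO, where replicates 2 and 3 were at or under the floor of 3 counts. The median log2 fold change was 2.29, against 0.071 over all genes tested. Cd53, a tetraspanin of leukocytes, had 3, 1 and 1 counts across Cx43FL against 24, 98 and 615 across Cx43KO. C3ar1, the receptor of complement C3a, had 1, 0 and 1 counts across Cx43FL against 95, 40 and 86 across Cx43KO. C1qb, a chain of C1q named after its values were seen, had 42, 27 and 18 counts across Cx43FL against 128, 97 and 1337 across Cx43KO. The list was chosen with earlier results of these data known. The study itself listed Cd53, C3ar1 and C1qb as raised from these same libraries. The numbers and shares of this list are therefore a description and not independent evidence. Cd14, a co-receptor of bacterial lipopolysaccharide, went the other way, with 24, 44 and 30 counts across Cx43FL against 3, 9 and 38 across Cx43KO. Scaled to CPM, Cd14 had 1.58, 2.92 and 1.95 across Cx43FL against 0.186, 0.362 and 1.17 across Cx43KO. Msr1, a scavenger receptor, had a log2 fold change of -0.54 (SE 1.94).

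Of 16 genes listed for activated microglia 15 were found in the counts and 7 could be tested. With edgeR's quasi-likelihood test 0 passed the adjusted threshold, and DESeq2 with its prior called 1 as higher (0.724% of all genes). An unadjusted p-value below 0.05, higher in Cx43KO, was reached by 1 of the 7, against 5.66% of all genes. Both times this gene was Lpl, a lipase that astrocytes and microglia share. It had 82, 63 and 182 counts across Cx43FL against 667, 371 and 1342 across Cx43KO. In CPM, Cx43FL lay at 5.40, 4.18 and 11.9 and Cx43KO at 41.4, 14.9 and 41.4. Ccl6, a chemokine, had a log2 fold change of 2.72 (SE 1.61) and Axl, a receptor kinase also of astrocytes, of -0.28 (SE 0.49), while Il1b and Ccl4 had 0 counts in all 6 libraries. Of 12 genes of border macrophages 4 could be tested, and 0 had an unadjusted p-value below 0.05 (5.66% of all genes higher, 2.67% lower). Every Cx43KO library was higher for 2 of the 4, against 8.08% of all genes tested. F13a1, a coagulation factor chain, had 25, 0 and 15 counts across Cx43FL against 69, 117 and 175 across Cx43KO.

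Genes of blood leukocytes were nearly absent. Their summed level was 0.856 to 3.78 CPM across Cx43FL against 3.94 to 4.28 across Cx43KO. Of 18 genes 8 had 0 counts in all 6 libraries (among them S100a8, Ly6g, Cd3e and Nkg7), 11 had under 3 counts in every library, and 1 could be tested, Cd4, with a log2 fold change of 1.52 (SE 1.56). Among endothelial and mural genes, 9 of 12 could be tested, with a median log2 fold change of 1.08 and 0 past the adjusted threshold.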
